A study of Mus musculus with 13 samples.

Results

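The genes described here act in the supply of thymidine nucleotides and of the other DNA precursors. They were Slc29a1, Tk1, Tk2, Dtymk, Dut, Tyms, Rrm1, Rrm2, Rrm2b and Samhd1. They were chosen by symbol as 10 of the 24421 genes of the count table, and all 10 were present and passed the filter on low counts. RNA depleted of ribosomal RNA was sequenced from 11 single tumors of the breast and from 2 glands free of cancer. All came from female MMTV-HER2/neu mice of the FVB/N-TgN line 202Mul/J, whose genotype label reads wild type. By the strain name, all groups carry the transgene. It is a rat HER2/Neu cDNA under the long terminal repeat promoter of mouse mammary tumor virus, which acts in breast epithelium. The label of wild type conflicts with this, and the labels do not settle it. Primary untreated tumors (n = 3) and glands (n = 2) came from untreated mice, and primary STV tumors (n = 3) came from mice given stavudine (STV) in drinking water. The water held 1 mg/mL stavudine, about 200 mg/kg a day, from 2 months of age or after tumors had appeared, and the labels do not say which of these starts applied to a tumor. The group called recurrent DMAG (n = 3) holds tumors that came back under continued 17-DMAG, after the drug had cleared the first ones. This drug blocks the chaperone HSP90 and was injected at 20 mg/kg 3 times a week. In the group called recurrent DMAG STV (n = 2), the mice also drank stavudine. The ages of the mice at sampling are not in the labels. Nothing says that every tumor came from its own mouse, so p-values measure the spread between these tumors.

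Thymidine reaches DNA by salvage and by synthesis. In salvage, nucleosides enter cells through transporters such as ENT1 (Slc29a1), thymidine kinase makes thymidine monophosphate (Tk1 in the cytosol of cycling cells, Tk2 in mitochondria at all times) and thymidylate kinase (Dtymk) adds the next phosphate. In synthesis, dUTPase (Dut) makes dUMP while keeping uracil out of DNA, and thymidylate synthase (Tyms) turns dUMP into thymidine monophosphate with a folate cofactor. Ribonucleotide reductase makes deoxynucleotides from ribonucleotides, as a complex of the large subunit Rrm1 with the S-phase small subunit Rrm2 or with the p53-inducible small subunit Rrm2b, and Samhd1 breaks deoxynucleoside triphosphates down. Stavudine is a thymidine analog that has to be phosphorylated by the salvage kinases before it can block reverse transcriptase, and thymidine kinase takes the first step.

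The bases just before the RefSeq start of transcription are shown for 5 of these genes. These 5 hold the cell-cycle form and the mitochondrial form of thymidine kinase, the synthase, and both subunits of the S-phase reductase. Each run holds the 150 bases before the RefSeq start, 5′ to 3′ on the strand of the gene, in build GRCm38.p6. The GENCODE annotation sets some starts farther upstream. By its gene bounds, part of the Tk1 run, with its GC box, and the last bases of the Rrm2 run lie within the gene. Capitals mark the motifs searched on both strands: the GC box GGGCGG, the CCAAT box, spelled as in its name, and the CHR element TTTGAA. A box on the opposite strand is read as the reverse complement. The motifs do not overlap one another in these runs.
Tk1, chr11:117826015-117826164, minus strand: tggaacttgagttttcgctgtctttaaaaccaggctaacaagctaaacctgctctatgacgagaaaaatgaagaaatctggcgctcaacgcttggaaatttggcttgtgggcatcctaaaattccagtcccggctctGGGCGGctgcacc
Tk2, chr8:104248559-104248708, minus strand: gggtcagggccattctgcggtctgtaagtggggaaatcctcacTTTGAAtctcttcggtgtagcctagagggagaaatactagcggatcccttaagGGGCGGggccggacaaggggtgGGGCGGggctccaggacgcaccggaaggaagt
Tyms, chr5:30073626-30073775, minus strand: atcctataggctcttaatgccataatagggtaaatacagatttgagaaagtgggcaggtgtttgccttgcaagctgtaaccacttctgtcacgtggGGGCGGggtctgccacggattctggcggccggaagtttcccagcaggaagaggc
Rrm1, chr7:102441545-102441694, plus strand: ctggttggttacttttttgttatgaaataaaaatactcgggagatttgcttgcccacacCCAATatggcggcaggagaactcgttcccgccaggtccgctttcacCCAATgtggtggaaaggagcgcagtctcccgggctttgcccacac
Rrm2, chr12:24708104-24708253, plus strand: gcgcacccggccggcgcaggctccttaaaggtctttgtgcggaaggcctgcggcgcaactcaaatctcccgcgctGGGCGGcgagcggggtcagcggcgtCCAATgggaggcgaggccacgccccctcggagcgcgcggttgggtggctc

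Rrm1 held 2 CCAAT boxes and no GC box, Rrm2 held 1 of each, and Tk1 and Tyms held 1 GC box each. Tk2 held 2 GC boxes and the CHR element. Dtymk held 1 CCAAT box, Dut 1 GC box, and Samhd1 none of the motifs. Slc29a1 held a GC box before 4 of its 8 starts, and a CCAAT box and a CHR element before 1 start each. By the gene bounds of GENCODE, the windows of Dut and Samhd1 and most of those of Slc29a1 lie wholly within the gene. RefSeq promoter windows matched 9 of the 10 genes, with 1 window each except Slc29a1, which had 8 alternative starts; Rrm2b had none. Of all 32851 windows of this length, 28.6% held a GC box, 24.5% a CCAAT box and 9.07% a CHR element. An E2F-type site, searched as TTTCCCGC, TTTGGCGC, TTTCGCGC or TTTGCCGC, was in 1.24% of all windows and in 0 of the 16 windows of these genes, which says only that these letters are not in the 150 bases searched.

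Levels are given as CPM, read counts scaled to a common library total after TMM scaling of the totals. A sum of CPM is thus not a share of the reads, least of all in gland 2 with its low TMM factor. Total counts ran from 39921388 to 56887708 per library, and 3 counts, used as a floor, were worth 0.0587 to 0.0695 CPM after TMM scaling of the totals, and 0.107 CPM in gland 2, whose TMM factor was 0.493. Floors cover counting error only. The 10 genes lay far above that floor, with 325 to 61759 counts in a library. The epithelial marker Epcam was present in all libraries, at 402 to 1236 CPM in tumors and at 655 and 493 CPM in the glands. Several libraries stood apart. Gland 1 carried more lymphocyte RNA (9 T cell markers summing to 153 CPM and 9 B cell markers to 283 CPM, against at most 12.4 and 7.64 CPM in any tumor), and the 8 milk protein genes summed to 764677 CPM in gland 2 against 28051 CPM in gland 1. Recurrent DMAG tumor 1 had the highest sums of 8 fibroblast markers (5755 CPM, against 281 to 1909 CPM in the other tumors) and of 11 macrophage markers (722 CPM, against 191 to 424 CPM). Recurrent DMAG STV tumor 2 had the lowest sum of 30 proliferation genes (513 CPM), the highest sum of 12 p53 target genes (890 CPM) and 2136 CPM of 11 skeletal muscle genes.

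Per kilobase of exon, Slc29a1 was by far the highest of the 10 genes in tumors. Its median over the 11 tumors was 301 CPM per kilobase, with a range of 118 to 466, which placed it above 99.62% of 23334 genes with an annotated length. Rrm1 came next at 23.4 (13.5 to 31.2), followed by Tk1 at 19.6 (13.8 to 30.6), Samhd1 at 19.0 (10.1 to 27.5) and Rrm2 at 18.1 (14.2 to 23.1), all in CPM per kilobase. The ranges of these 4 genes over tumors overlapped, and so did those of the genes below them. Tk2 had a median of 13.3 CPM per kilobase (6.86 to 14.8), Dtymk of 11.04 (8.52 to 11.9), Tyms of 9.57 (4.87 to 12.6), Dut of 8.29 (6.84 to 10.9) and Rrm2b of 7.15 (5.07 to 9.52). The order was the same when counts were scaled to library totals alone. Across tumors, Slc29a1 varied the most, with the highest tumor at 3.95 times the lowest, and Dtymk the least, at 1.40 times.

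**Figure D1:**
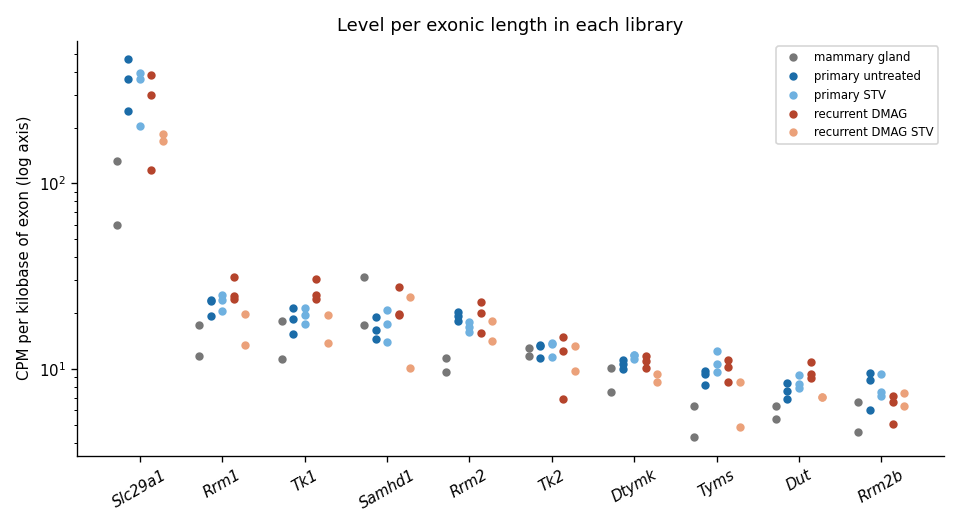
Level of each gene per kilobase of exon in every library, on a log axis, ordered from left to right by the median over the 11 tumors; each point is 1 library and colors mark the 5 groups. Slc29a1 stands above all others in every library, from 60.0 CPM per kilobase in gland 2 to 466 in a primary untreated tumor.

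The first comparison asked how far the supply genes differed between tumors and cancer-free glands of the same transgenic strain. Of the 10 genes, Rrm2 was the only 1 that rose in tumors at an adjusted p under 0.05 (edgeR quasi-likelihood test on 13 libraries, Benjamini-Hochberg over 17135 genes), where 1.6% of all genes did. At an unadjusted p under 0.05, 5 of the 10 were higher (Rrm2, Tyms, Dut, Slc29a1 and Rrm1), against 10.6% of all genes, and none was lower. DESeq2 called those same 5 genes, but it also called more of all genes than edgeR did, and limma voom called fewer of the 10 than DESeq2. The median log2 fold change of the 10 genes was 0.46, beside -0.02 for all genes tested. In bulk tissue, a lower share of cells that use a gene and less of its RNA per cell cannot be told apart.

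Rrm2 (chr12:24708241-24714146, 10 exon blocks) had 21.2 and 25.2 CPM in the glands. It had 42.1, 39.8 and 44.6 CPM in primary untreated, 34.6, 37.0 and 39.0 CPM in primary STV, 44.0, 34.1 and 50.6 CPM in recurrent DMAG, and 39.6 and 31.1 CPM in recurrent DMAG STV tumors. The lowest tumor lay above the higher gland, and only Rrm2 and Dut separated all tumors from both glands in this way, 2 of 10 genes where 4.14% of all genes did. For Rrm2 the log2 fold change was 0.76 ± 0.16 (SE), or 1.69-fold, with an adjusted p of 0.0179. The call held without either gland, and without any single tumor.

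Slc29a1 (chr17:45585200-45599606), the equilibrative transporter that carries thymidine across the plasma membrane, had the widest difference between tumors and glands. The glands had 352 and 159 CPM of it, against 976, 655 and 1238 CPM in primary untreated tumors. There were 976, 544 and 1046 CPM in primary STV, 313, 799.5 and 1026 CPM in recurrent DMAG, and 449 and 491 CPM in recurrent DMAG STV tumors. Recurrent DMAG tumor 1 was the only tumor that lay within the range of the glands. The log2 fold change was 1.499 ± 0.48 (2.83-fold, 95% interval 1.36 to 5.88), with an adjusted p of 0.0702, and without that tumor it was 1.59 with an adjusted p of 0.0224.

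The synthesis genes stood higher in tumors as well, without passing the adjusted threshold. Tyms (chr5:30058202-30073617) had 20.0 and 13.6 CPM in the glands and 15.4 to 39.7 CPM in tumors (median 30.3), with a log2 fold change of 0.76 ± 0.23 and an adjusted p of 0.0589. Dut (chr2:125247190-125258608) had 13.7 and 11.6 CPM in the glands and 14.8 to 23.6 CPM in tumors, with a log2 fold change of 0.48 ± 0.15 and an adjusted p of 0.0603. Rrm1 (chr7:102441695-102469771), the catalytic subunit shared by both forms of the reductase, had 68.6 and 46.7 CPM in the glands. In tumors it ran from 53.9 to 125 CPM, and its log2 fold change was 0.59 ± 0.19 with an adjusted p of 0.0754.

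Of the salvage kinases, Tk1 (chr11:117815526-117826092) had 26.0 and 16.3 CPM in the glands and 19.9 to 44.0 CPM in tumors, with a log2 fold change of 0.44 ± 0.21 and an adjusted p of 0.188. Tk2 (chr8:104226685-104248558), at 28.4 and 31.2 CPM in the glands and 16.5 to 35.6 CPM in tumors, had a log2 fold change of -0.03 ± 0.23. Dtymk (chr1:93792576-93801934) had 22.9 and 17.1 CPM in the glands and 19.4 to 27.1 CPM in tumors, a log2 fold change of 0.25 ± 0.13 with an adjusted p of 0.228. The 95% interval for Tk2 ran from -0.54 to 0.49 on the log2 scale, and with library totals alone its sign turned (0.38).

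Rrm2b and Samhd1, a repair subunit and a nucleotide-degrading enzyme, closed the list. Rrm2b (chr15:37923952-37961318) had 30.1 and 20.8 CPM in the glands and 23.1 to 43.4 CPM in tumors, with a log2 fold change of 0.38 ± 0.22 (adjusted p = 0.262). Samhd1 (chr2:157097533-157135265) had 172 and 94.6 CPM in the glands and 55.4 to 151 CPM in tumors, with a log2 fold change of -0.41 ± 0.30 (adjusted p = 0.376). Samhd1 was highest in gland 1, the library with the most lymphocyte RNA, and without that gland its log2 fold change was 0.12. The pan-leukocyte markers, 10 genes, summed to 1015 CPM in gland 1, 396 CPM in gland 2 and 274 to 862 CPM in tumors. None was at 0 in any library. Lcp1 had by far the highest mean level of the 10 (log2 CPM 8.46, with Ptprc next at 5.39), so it weighed most in these sums. It alone had a higher fitted value in tumors (log2 fold change 0.15). Most of the 10 were lower in tumors at an unadjusted p under 0.05, and 4 of them at an adjusted one. Ptprc, which encodes CD45, had a log2 fold change of -2.24 (adjusted p = 0.0133). The part of these markers in the result was not tested.

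Proliferation genes were also higher in tumors. All 30 had a higher fitted value than in the glands, 4 of them at an unadjusted p under 0.05 and none at an adjusted one, with a median of 0.64 on the log2 scale and none at 0 in any library. The list summed to 1077 and 755 CPM in the glands and to 513 to 1907 CPM in tumors, and its part in the result was not tested. The makeup of the tissue also moved with the comparison. Of 8 epithelial markers, 6 were higher in tumors, 3 of them at an unadjusted p under 0.05 and none at an adjusted one, with a median of 0.67 on the log2 scale. They summed to 1671 and 1266 CPM in the glands and to 1432 to 2917 CPM in tumors, and Epcam had a log2 fold change of 0.71 (adjusted p = 0.0646). All 10 adipocyte markers had a lower fitted value in tumors, 9 of them at an adjusted p under 0.05. Their sums were 1384 and 1278 CPM in the glands and 117 to 266 CPM in tumors. All 8 myoepithelial markers were lower, 5 at an adjusted p under 0.05, with sums of 336 and 973 CPM in the glands and of 22.8 to 272 CPM in tumors. All 8 endothelial markers were lower, most at an unadjusted p under 0.05 and 2 at an adjusted one. They summed to 338 and 312 CPM in the glands and to 74.6 to 311 CPM in tumors. None of these markers was at 0 in a gland, and primary STV tumor 3 alone had markers at 0 (4 adipocyte and 2 myoepithelial ones). The part of these lists in the differences of the 10 genes was not tested.

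The number of genes called depended on the libraries. Without gland 1, gland 2 was the only gland left, and more of the 10 genes were called, as were more of all genes. Without recurrent DMAG tumor 1, 4 of the 10 were called (Rrm2, Slc29a1, Tyms and Dut), and without recurrent DMAG STV tumor 2, 2 were called (Rrm2 and Tyms). With all 13 libraries, 1 of the 10 was called higher, where 1.6% of all genes were. The shares of all genes in the fits without a tumor are not given beside these counts, so the counts show nothing particular to the 10 genes. Scaling by library totals alone moved the median of all genes to 0.37 on the log2 scale.

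**Figure D2:**
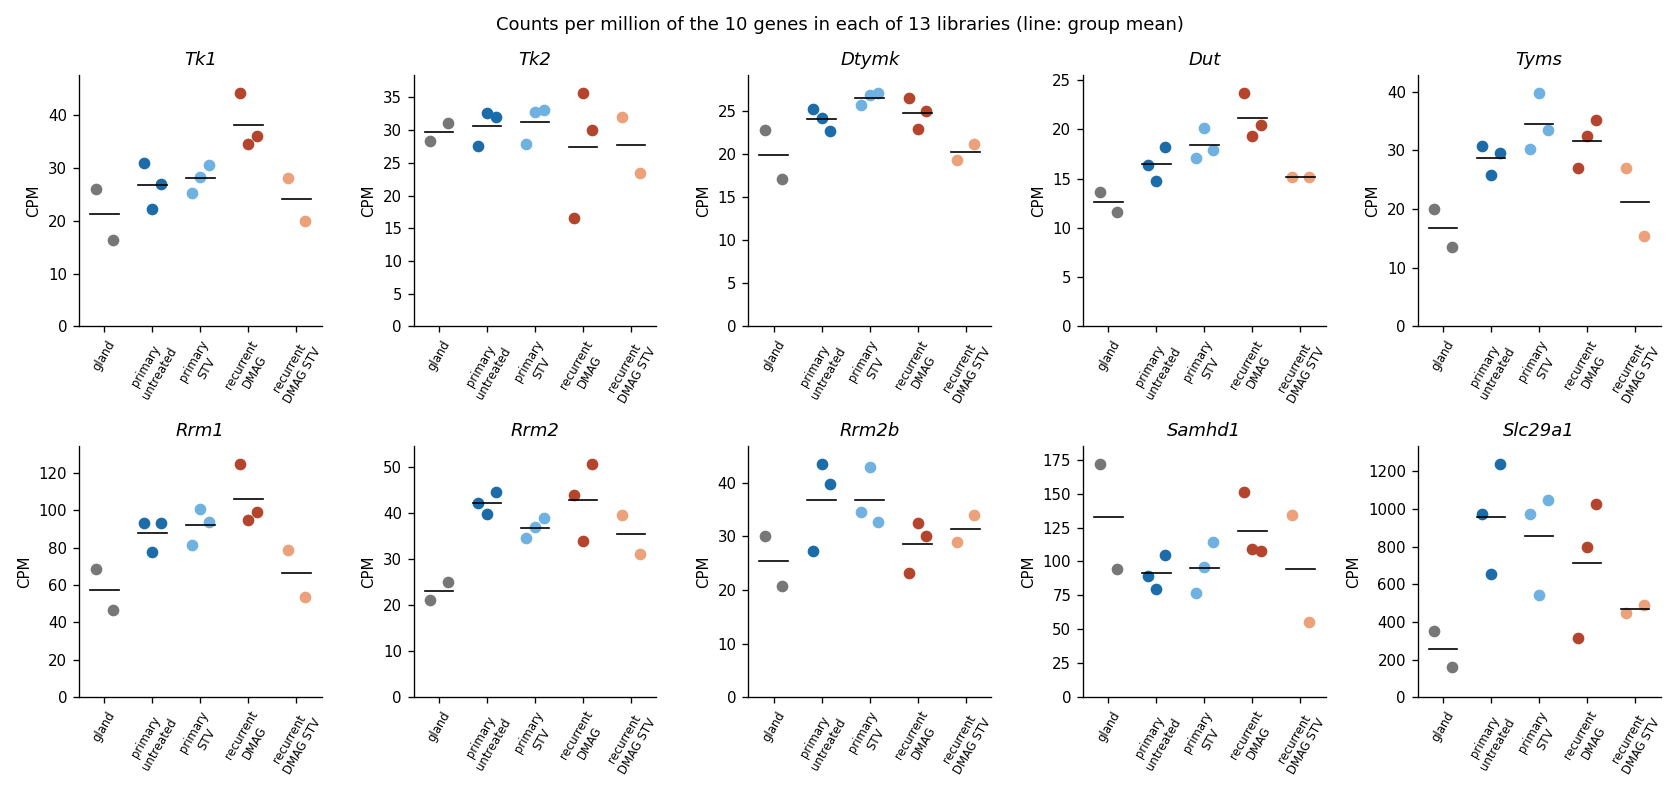
CPM of each of the 10 genes in each of the 13 libraries, with 1 point per library and a line at the group mean; each axis starts at 0. Rrm2 and Dut are higher in every tumor than in both glands, and Tk1, Dtymk, Dut and Rrm1 are lower in both recurrent DMAG STV tumors than in all 3 recurrent DMAG tumors.

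Around the 10 genes, 5 lists of pathway genes held 57 genes: 13 other nucleoside and nucleotide kinases, 17 nucleoside breakdown genes, 11 transporters of nucleosides and nucleotide analogs, 11 genes of the folate and thymidylate cycle, and 5 genes of pyrimidine synthesis. All but the transporter Slc28a1, which was listed at 0 to 0.169 CPM, were tested. Against glands, 5 of the 56 fell in tumors at an adjusted p under 0.05, where 8.81% of all genes did, and none rose. The median log2 fold change of the 56 was -0.06. Of these 5, 4 were transporters. The concentrative nucleoside transporter Slc28a3 had 268 and 5088 CPM in the glands and 164 to 596 CPM in tumors, with a log2 fold change of -3.31 ± 0.59 (adjusted p = 0.00831). Its relative Slc28a2 had 9.05 and 4.28 CPM in the glands and at most 2.78 CPM in tumors, with a log2 fold change of -3.37 ± 0.76 (adjusted p = 0.0219). Gland 1 lay within the tumors for Slc28a3, while Slc28a2 and Abcc4 separated both glands from all tumors.

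The efflux pumps Abcg2 and Abcc4 had log2 fold changes of -2.78 and -1.76 (adjusted p = 0.0293 and 0.0307). Abcg2 had 62.6 and 1193 CPM in the glands and 16.3 to 213 CPM in tumors. Dhodh, which makes orotate in the mitochondrion on the way to uridine nucleotides, had 20.7 and 177 CPM in the glands and 10.5 to 23.2 CPM in tumors, and its log2 fold change was -2.36 ± 0.45 (adjusted p = 0.0106). Abcg2 and Dhodh, like Slc28a3, were high in gland 2 alone, the library with the most milk transcripts, whose part in these results was not tested. Without gland 2, a setting added after the data were seen, none of the 3 was called, with log2 fold changes of 0.096 for Slc28a3 (adjusted p = 0.954), 0.63 for Abcg2 (0.755) and -0.020 for Dhodh (0.988). Slc28a2 and Abcc4 were at -3.72 and -1.97 without gland 2 (adjusted p = 0.0764 and 0.116) and at -2.69 and -1.35 without gland 1 (0.0846 and 0.130). The next 3 genes by p-value did not pass the threshold: the purine nucleoside phosphorylase Pnp at -1.22 (adjusted p = 0.0540), the dCMP deaminase Dctd at 0.99 (0.0816) and the dCTP pyrophosphatase Dctpp1 at 0.47 (0.0827), all log2 fold changes.

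**Figure D3:**
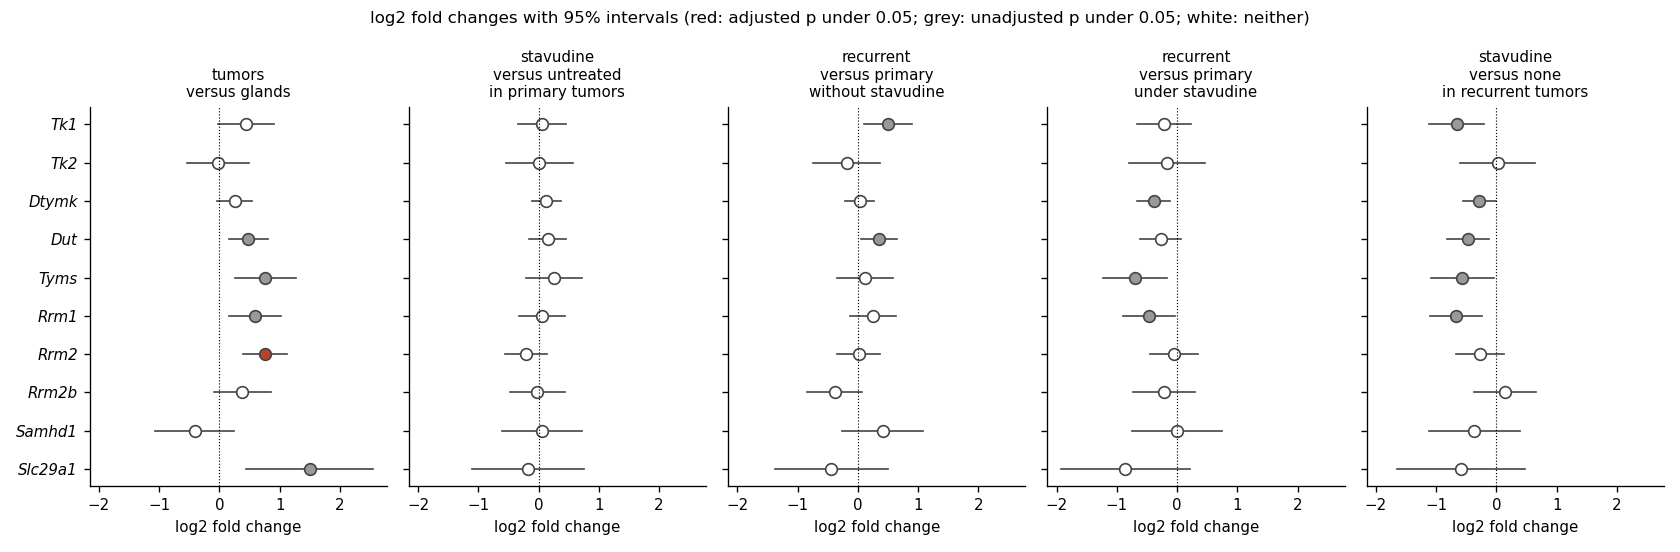
log2 fold changes of the 10 genes with their 95% intervals in 5 comparisons that share a common axis; the fill gives the test result of each gene (red for an adjusted p under 0.05, grey for an unadjusted p alone, white for neither). Rrm2 against glands, at 0.76, is the only red point, and in recurrent tumors 8 of the 10 points lie below 0 with stavudine.

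The second comparison asked whether stavudine, which needs the salvage kinases, moved their transcripts in primary tumors. None of the 10 genes was called in primary STV against primary untreated tumors (edgeR quasi-likelihood test on 11 tumors), where 0% of all 16870 genes were. At an unadjusted p under 0.05 the count was also 0 of 10, against 3.76% of all genes, and neither DESeq2 nor limma voom called any of the 10, here or in the comparisons between tumors that follow. The adjusted p was 0.9998 for each. The 10 log2 fold changes ran from -0.21 (Rrm2) to 0.25 (Tyms), with a median of 0.05 beside -0.03 for all genes.

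Tk1 had 30.8, 22.3 and 26.9 CPM in primary untreated tumors and 25.2, 28.3 and 30.6 CPM in primary STV tumors. These ranges overlapped, the log2 fold change was 0.06 ± 0.18, and its 95% interval ran from -0.34 to 0.45. Tk2 had 27.5, 32.6 and 32.0 CPM without stavudine and 28.0, 32.7 and 33.1 CPM with it, a log2 fold change of 0.01 with an interval from -0.54 to 0.57. The groups did not overlap for 2 of the 10 genes, against 10.8% of all genes. These were Dtymk, at 25.2, 24.2 and 22.8 CPM without and 25.7, 27.0 and 27.1 CPM with stavudine (log2 fold change 0.13, unadjusted p = 0.256), and Rrm2, which was lower with stavudine (unadjusted p = 0.221). Slc29a1 had the widest interval, from -1.11 to 0.76 around a log2 fold change of -0.17.

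Of the 56 pathway genes, 1 was higher and 2 were lower at an unadjusted p under 0.05 in this comparison, against 1.32% and 2.44% of all genes, and none was called. Pnp had the smallest p, with 16.4, 29.8 and 22.9 CPM without stavudine and 14.4, 14.3 and 13.9 CPM with it (log2 fold change -0.71 ± 0.20, unadjusted p = 0.00610, adjusted p = 0.9998). The mitochondrial nucleoside diphosphate kinase Nme4 was at -0.64 (unadjusted p = 0.0387) and the UMP/CMP kinase Cmpk1 at 0.30 (0.0938), both log2 fold changes.

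The third comparison set recurrent DMAG tumors against primary untreated tumors, both without stavudine. It also set tumors under DMAG treatment against untreated ones, and recurrence was not tested apart from the drug. No gene of the 10 was called, as was the case for 0% of all genes. Tk1 and Dut were higher at an unadjusted p under 0.05, 2 of 10 genes against 4.79% of all genes, and none was lower. The median log2 fold change of the 10 genes was 0.08, beside -0.01 for all genes. Tk1 had 44.0, 34.4 and 35.9 CPM in recurrent DMAG tumors, all above the 3 primary untreated tumors, with a log2 fold change of 0.50 ± 0.18 (unadjusted p = 0.0182, adjusted p = 0.509). Dut had 23.6, 19.4 and 20.4 CPM in recurrent DMAG and 16.4, 14.8 and 18.2 CPM in primary untreated tumors, with a log2 fold change of 0.35 ± 0.13 (unadjusted p = 0.0289, adjusted p = 0.509). Both separated the groups, as did Rrm1 and Samhd1, 4 of 10 genes against 7.65% of all genes. Without recurrent DMAG tumor 1, the log2 fold change was 0.40 for Tk1 (unadjusted p = 0.0585) and 0.28 for Dut (0.0572).

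Rrm1 had 125, 94.9 and 99.3 CPM in recurrent DMAG tumors and 93.1, 77.5 and 93.5 CPM in primary untreated tumors (log2 fold change 0.26, unadjusted p = 0.162). Samhd1 had 151, 109 and 107 CPM against 89.2, 79.9 and 105 CPM (log2 fold change 0.41, unadjusted p = 0.198). Rrm2b went the other way, at 23.1, 32.5 and 30.1 CPM in recurrent DMAG tumors and 27.2, 43.4 and 39.8 CPM in primary untreated tumors, with a log2 fold change of -0.38 (unadjusted p = 0.0928) and overlapping groups. The other 5 genes lay between -0.44 (Slc29a1) and 0.12 (Tyms). The pathway genes with the smallest p were Dctd at -0.51, the mitochondrial pyrimidine nucleotide carrier Slc25a33 at -1.15, the transporter Slc29a4 at 1.69 and Pnp at -0.56, with unadjusted p from 0.00547 to 0.0208 and adjusted p of 0.509. Of the 56, 1 was higher and 6 were lower at an unadjusted p under 0.05, against 4.79% and 4.9% of all genes.

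Proliferation and leukocyte genes moved with this difference. All 30 had a higher fitted value in recurrent DMAG tumors, 4 of them at an unadjusted p under 0.05 and none at an adjusted one, with sums of 1724 to 1907 CPM against 1108 to 1496 CPM in primary untreated tumors and none at 0. All 10 pan-leukocyte genes were also higher, 4 of them at an unadjusted p under 0.05, with sums of 370 to 715 CPM against 361 to 552 CPM. Lcp1, by far the highest of the 10 in mean level over the tumors, weighed most in these sums. The part of either list in the result was not tested.

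The comparison of the recurrent groups asked whether the tumors that came back under stavudine differed in these genes from those that came back without it. Both groups were under DMAG treatment, and the part of its length in the result was not tested. Of the 10 genes, 5 were lower in recurrent DMAG STV tumors at an unadjusted p under 0.05, against 4.38% of all genes: Rrm1, Tk1, Dut, Tyms and Dtymk. None passed the adjusted threshold, which 0% of all genes passed. The median log2 fold change of the 10 genes was -0.42, beside -0.0047 for all genes. With 3 and 2 tumors, the groups did not overlap for 4 of the 10 (Tk1, Dtymk, Dut and Rrm1), all lower with stavudine, against 10.5% of all genes.

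Tk1, the kinase that takes the first step on stavudine, had 28.1 and 19.9 CPM in recurrent DMAG STV tumors, below the 34.4 to 44.0 CPM of the recurrent DMAG tumors. The log2 fold change was -0.66 ± 0.20, a ratio of 0.632 (95% interval 0.463 to 0.863), with an unadjusted p of 0.00851 and an adjusted p of 0.430. Dtymk, which phosphorylates the product of Tk1, had 26.6, 22.9 and 25.1 CPM without and 19.4 and 21.2 CPM with stavudine, a log2 fold change of -0.29 ± 0.12 (unadjusted p = 0.0416, adjusted p = 0.616). The mitochondrial kinase Tk2 had 16.5, 35.6 and 30.01 CPM without and 32.0 and 23.4 CPM with stavudine, groups that overlapped, with a log2 fold change of 0.03 ± 0.28. The sign of Tk2 turned without recurrent DMAG tumor 1 (-0.24) and without recurrent DMAG STV tumor 1 (-0.23).

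In thymidylate synthesis, Dut had 23.6, 19.4 and 20.4 CPM without and 15.2 CPM in both tumors with stavudine, with a log2 fold change of -0.47 ± 0.15 (unadjusted p = 0.0120, adjusted p = 0.474). Tyms had 26.9, 32.5 and 35.2 CPM without and 27.0 and 15.4 CPM with stavudine, so that the groups touched, and its log2 fold change was -0.57 ± 0.23 (unadjusted p = 0.0366, adjusted p = 0.609). The low value of Tyms was that of recurrent DMAG STV tumor 2, and without that tumor the log2 fold change was -0.23 (unadjusted p = 0.311).

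Of the reductase subunits, Rrm1 had the smallest p of the 10 genes, with 125, 94.9 and 99.3 CPM without and 78.9 and 53.9 CPM with stavudine. Its log2 fold change was -0.67 ± 0.19, a ratio of 0.627 (95% interval 0.464 to 0.847), with an unadjusted p of 0.00640 and an adjusted p of 0.403. Rrm2 had 44.0, 34.1 and 50.6 CPM against 39.6 and 31.1 CPM, overlapping groups with a log2 fold change of -0.27 (unadjusted p = 0.156). Rrm2b had 23.1, 32.5 and 30.1 CPM against 28.9 and 33.9 CPM, with a log2 fold change of 0.15 (unadjusted p = 0.539).

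Samhd1 had 134 and 55.4 CPM in the recurrent DMAG STV tumors, the first within and the second below the 107 to 151 CPM of recurrent DMAG tumors, and a log2 fold change of -0.37 ± 0.33. Its value without recurrent DMAG STV tumor 2 was 0.12. Slc29a1 had 313, 799.5 and 1026 CPM without and 449 and 491 CPM with stavudine, overlapping groups with a log2 fold change of -0.59 ± 0.47. Its interval ran from -1.66 to 0.47.

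The size of these differences rested in part on 2 tumors. Without recurrent DMAG STV tumor 2, the log2 fold change was -0.44 for Tk1 (unadjusted p = 0.0935), -0.43 for Rrm1 (0.0696), -0.48 for Dut (0.0431) and -0.37 for Dtymk (0.0504). Without recurrent DMAG STV tumor 1 it was -0.94 for Tk1 (0.00424), -0.99 for Rrm1 (0.00159) and -1.04 for Tyms (0.00150). With both recurrent DMAG tumor 1 and recurrent DMAG STV tumor 2 left out, a setting added after the data were seen, it was -0.32 for Tk1 (unadjusted p = 0.171), -0.30 for Rrm1 (0.121), -0.39 for Dut (0.0664), -0.33 for Tyms (0.127) and -0.31 for Dtymk (0.0659). All 5 were thus still negative, with none at an unadjusted p under 0.05.

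The proliferation list moved the same way. All 30 genes had a lower fitted value in recurrent DMAG STV tumors, 24 of them at an unadjusted p under 0.05, with a median of -1.40 on the log2 scale and a smallest adjusted p of 0.166. The list summed to 950 and 513 CPM against 1724 to 1907 CPM, with no gene at 0. Mki67, which encodes the cycling-cell antigen Ki-67, had 198 and 83.8 CPM against 503 to 523 CPM (log2 fold change -1.85, adjusted p = 0.166), and the replication clamp Pcna had 58.3 and 44.0 CPM against 64.2 to 80.2 CPM (log2 fold change -0.51, adjusted p = 0.558). Of 12 p53 target genes, 4 were higher and none lower at an unadjusted p under 0.05. The list summed to 441 and 890 CPM in recurrent DMAG STV tumors and to 359 to 465 CPM in recurrent DMAG tumors; the cyclin-dependent kinase inhibitor Cdkn1a had 25.7 and 118 CPM against 48.8, 8.40 and 6.19 CPM, and Mdm2, the ubiquitin ligase of p53, 55.8 and 69.0 CPM against 49.8 to 53.3 CPM. The pan-leukocyte list had no gene at an unadjusted p under 0.05, and Ptprc was at -0.15 (log2). Of 11 macrophage markers, 1 was higher at that threshold (Cd163, log2 fold change 2.29, unadjusted p = 0.0121), with sums of 418 and 424 CPM against 210, 258 and 722 CPM, and none lower. Of 8 epithelial markers, 1 was lower and none higher: Epcam had 743 and 402 CPM with stavudine and 874 to 1136 CPM without (log2 fold change -0.84, unadjusted p = 0.00577, adjusted p = 0.399), and the list summed to 2314 and 1432 CPM against 2387 to 2917 CPM. Skeletal muscle genes, none of them at 0 in these 2 tumors, summed to 26.0 and 2136 CPM with stavudine and to 5.93, 10.1 and 578 CPM without, where 1, 5 and 0 of the 11 were at 0. The part of these lists in the result was not tested.

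Among the 56 pathway genes, 2 were lower and none higher at an unadjusted p under 0.05, against 4.38% and 3.46% of all genes, and the median log2 fold change was 0.04. The 2 were the ecto-5′-nucleotidase Nt5e, at 4.46 and 2.96 CPM against 15.4, 6.61 and 7.07 CPM (log2 fold change -1.38 ± 0.46, unadjusted p = 0.0139), and the mitochondrial formate enzyme Mthfd1l, at 11.1 and 11.5 CPM against 27.0, 18.6 and 14.7 CPM (-0.83 ± 0.31, unadjusted p = 0.0250). The proton-coupled folate transporter Slc46a1 was at 0.39 (unadjusted p = 0.0522) and the serine hydroxymethyltransferase Shmt1 at -0.42 (0.0623). No other salvage kinase reached an unadjusted p under 0.05.

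Recurrent DMAG STV tumors were also compared with primary STV tumors, a comparison that shares its recurrent tumors with the one above. Here too only the recurrent tumors were under DMAG treatment, whose part in the result was not tested. All 10 genes had a lower fitted value in the recurrent group, 3 of them at an unadjusted p under 0.05, against 4.64% of all genes, and none was called, as for 0% of all genes. Their median log2 fold change was -0.25, beside 0.01 for all genes. Dtymk had 25.7, 27.0 and 27.1 CPM in primary STV tumors, above the 19.4 and 21.2 CPM of the recurrent ones (log2 fold change -0.39 ± 0.12, unadjusted p = 0.0108, adjusted p = 0.393). Tyms had 30.3, 39.7 and 33.4 CPM against 27.0 and 15.4 CPM (-0.70 ± 0.23, unadjusted p = 0.0146, adjusted p = 0.415). Rrm1 had 81.7, 101 and 94.0 CPM against 78.9 and 53.9 CPM (-0.47 ± 0.19, unadjusted p = 0.0362, adjusted p = 0.470). The groups did not overlap for 5 of the 10 genes (Dtymk, Dut, Tyms, Rrm1 and Slc29a1), all lower in recurrent tumors, against 17.9% of all genes. Without recurrent DMAG STV tumor 2, the log2 fold change was -0.46 for Dtymk (unadjusted p = 0.0195), -0.36 for Tyms (0.132) and -0.23 for Rrm1 (0.304).

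Samhd1 was at -0.01, Rrm2 at -0.06, Tk2 at -0.17, Rrm2b and Tk1 at -0.22, Dut at -0.27 and Slc29a1 at -0.86 on the log2 scale, with unadjusted p from 0.104 to 0.982. The signs of Samhd1, Rrm2, Tk1 and Tk2 turned without recurrent DMAG STV tumor 2. The proliferation list again had all 30 genes lower, 23 of them at an unadjusted p under 0.05, and summed to 1189 to 1680 CPM in primary STV tumors. All 12 p53 target genes and all 10 pan-leukocyte genes were higher in the recurrent group, 4 of each at an unadjusted p under 0.05, and the part of these lists in the result was not tested. Of the 56 pathway genes, 4 were higher and 2 lower at an unadjusted p under 0.05, against 5.42% and 4.64% of all genes, and the 4 with the smallest p were Uckl1 (1.10) and Uck2 (0.80) of the uridine kinase family, Pnp (0.60) and the efflux pump Abcc5 (1.16), all log2 fold changes with adjusted p from 0.412 to 0.481.

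Over all 11 tumors, stavudine against none averaged over primary and recurrent tumors gave no call among the 10 genes, nor for any gene (0% of all genes). Rrm1 at -0.31 ± 0.13 (unadjusted p = 0.0371) and Tk1 at -0.30 ± 0.13 (unadjusted p = 0.0477) were lower on the log2 scale, 2 of 10 genes against 2.89% of all genes. Both adjusted p-values were 0.993, and the median of the 10 genes was -0.16, beside -0.02 for all genes. The groups with and without stavudine overlapped for each of the 10 genes. Without recurrent DMAG STV tumor 2, Rrm1 was at -0.18 (unadjusted p = 0.190) and Tk1 at -0.18 (0.234). Of the 30 proliferation genes, 29 had a lower fitted value with stavudine, 20 of them at an unadjusted p under 0.05, with a median of -0.65 on the log2 scale; Mki67 was at -0.93 (unadjusted p = 0.00164, adjusted p = 0.861). Of 8 epithelial markers, 1 was lower at that threshold, Epcam at -0.44 on the log2 scale (unadjusted p = 0.0191, adjusted p = 0.993). The part of these lists in the result was not tested. The pathway genes with the smallest p were Nt5e at -0.87, Mthfd1l at -0.60, the uridine phosphorylase Upp2 at 0.76 and Cmpk1 at 0.24, with adjusted p of 0.993.

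Whether the stavudine difference itself differed between recurrent and primary tumors was tested as an interaction in the fit of all tumors. It was negative at an unadjusted p under 0.05 for 5 of the 10 genes, against 4.01% of all genes, and passed the adjusted threshold for none, as for 0% of all genes. In Dut the stavudine difference was 0.15 in primary and -0.47 in recurrent tumors, an interaction of -0.62 ± 0.20 on the log2 scale (unadjusted p = 0.0129, adjusted p = 0.534). In Rrm1 it was 0.05 and -0.67, in Tk1 0.06 and -0.66, in Tyms 0.25 and -0.57, and in Dtymk 0.13 and -0.29. Without recurrent DMAG STV tumor 2, the interaction was -0.65 for Dut (unadjusted p = 0.0276), -0.52 for Dtymk (0.0271), -0.51 for Rrm1 (0.0771), -0.52 for Tk1 (0.1003) and -0.50 for Tyms (0.0888). The median interaction of the 10 genes was -0.42, beside 0.03 for all genes. For Tk2 the difference was 0.01 and 0.03, with an interaction of 0.01 and an interval from -0.82 to 0.85. All 30 proliferation genes had a negative interaction, 25 of them at an unadjusted p under 0.05; the part of cycling cells in the result was not tested. Pathway genes with a small interaction p included Pnp at 1.16 (unadjusted p = 0.00362), Uckl1 at 1.25 (0.0315) and Slc46a1 at 0.58 (0.0351), all with adjusted p from 0.457 to 0.607.

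The levels of the 10 genes were then set against 2 scores over the 11 tumors, the mean log2 CPM of the 30 proliferation genes and that of the 10 pan-leukocyte genes, as 20 relations tested by permutation of tumors (100000 resamples, two-sided) with Benjamini-Hochberg adjustment over the 20. With the proliferation score, 4 genes passed. Pearson's r was 0.960 for Rrm1 (permutation p = 2e-05, adjusted 0.0004; Spearman's rho 0.955, permutation p = 5e-05, adjusted 0.001) and 0.851 for Tk1 (permutation p = 0.00053, adjusted 0.0053; rho 0.909, permutation p = 0.00032, adjusted 0.0026). It was 0.861 for Tyms (permutation p = 0.00491, adjusted 0.0196; rho 0.600, permutation p = 0.0565, adjusted 0.192) and 0.766 for Dut (permutation p = 0.00446, adjusted 0.0196; rho 0.909, permutation p = 0.00039, adjusted 0.0026). The points of Rrm1 followed the score closely from the lowest tumor to the highest. Those of Tk1 did so less at low scores. There, recurrent DMAG STV tumor 1 (28.1 CPM) lay above primary untreated tumor 2 (22.3 CPM), whose score was higher.

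The 2 tumors farthest from the median proliferation score were both recurrent DMAG STV tumors. Without them r was 0.883 for Rrm1, 0.940 for Tk1, 0.861 for Dut and 0.423 for Tyms, so that the relation of Tyms rested on those tumors. With values centred on their group means, r was 0.899 for Rrm1, 0.892 for Tk1 and 0.837 for Tyms, and 0.381 for Dut. Centring removes the group means, which permutation over the 11 tumors does not allow for, so no p-value is given for centred values. Samhd1 had an r of 0.705 over all 11 tumors (permutation p = 0.0182, adjusted 0.0519; rho 0.564, permutation p = 0.0768). Its r was 0.793 without the 2 tumors (exact permutation p = 0.00960, adjusted 0.048) and 0.869 with centred values. Over all 11 tumors, Dtymk had an r of 0.652 (permutation p = 0.0305, adjusted 0.0762) and Rrm2 of 0.593 (permutation p = 0.0543, adjusted 0.109). Tk2 at 0.045, Slc29a1 at 0.207 and Rrm2b at -0.265 had adjusted p of 0.551 and above.

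**Figure D4:**
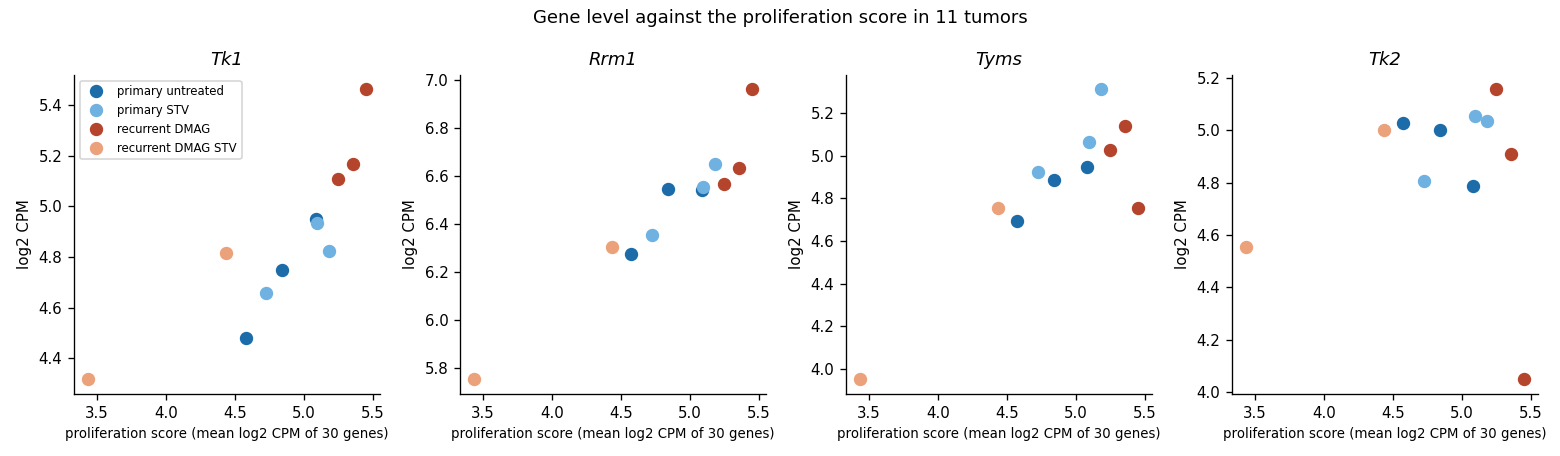
log2 CPM of Tk1, Rrm1, Tyms and Tk2 against the proliferation score in the 11 tumors; each point is 1 tumor and colors mark the 4 groups. Rrm1 and Tk1 rise with the score (r = 0.960 and 0.851) and Tk2 does not (r = 0.045), and the 2 recurrent DMAG STV tumors have the lowest scores, 4.43 and 3.43.

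With the pan-leukocyte score, Rrm2b (r = -0.770, permutation p = 0.00356, adjusted 0.0196; rho -0.755, permutation p = 0.00981, adjusted 0.0491) and Slc29a1 (r = -0.710, permutation p = 0.0126, adjusted 0.0418; rho -0.405, permutation p = 0.217) passed. Neither passed without recurrent DMAG tumor 1 and recurrent DMAG STV tumor 1, the tumors farthest from the median score, where r was -0.557 for Rrm2b (exact permutation p = 0.120) and -0.030 for Slc29a1 (exact permutation p = 0.939). The relation of Slc29a1 with leukocyte RNA thus rested on those 2 tumors, and that of Rrm2b was weaker over the other 9. With values centred on group means, r was -0.671 for Rrm2b and -0.594 for Slc29a1, given without a p-value as above. The largest positive r with centred values were those of Tk1 (0.721), Rrm1 (0.721) and Samhd1 (0.690). Samhd1, which leukocytes express strongly, had an r of 0.580 with uncentred values (permutation p = 0.0679, adjusted 0.123), and of -0.156 without the same 2 tumors.

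Among the 10 genes, the pairs most alike over the 11 tumors were Tk1 with Rrm1 (Pearson's r = 0.886), Tk1 with Dut (0.833), Dut with Rrm1 (0.830) and Tk1 with Samhd1 (0.827), given as a description of libraries that share depth, scaling and cell mixture. Centred on group means, Tk1 with Rrm1 was at 0.923, Rrm1 with Samhd1 at 0.909 and Tk1 with Dut at 0.538. Rrm2b ran against Tk1, at -0.673. The small subunit Rrm2 was less like its partner Rrm1, at 0.626, and Tk1 and Tk2 were at -0.304. The ratio of Tk1 to Tk2 counts was 2.67 in recurrent DMAG tumor 1, the tumor with the highest Tk1 and the lowest Tk2, and 0.683 to 1.20 in the other 10 tumors.

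Over the 13012 genes whose log2 CPM averaged 1 or more, the genes most like Tk1 across the 11 tumors were D17H6S56E-5 (Pearson's r = 0.981), the histone genes Hist1h2bh (0.978) and Hist1h3d (0.974), Ticrr (0.971) and Chtf18 (0.968). Those most like Rrm1 were the mitotic checkpoint kinase Bub1 (0.986), Arhgap19, Arhgap11a, Ncaph and Cenpq (0.978 to 0.969). Tyms was most like Neil3 (0.971), Kntc1, Esco2, Ttk and Zfp608, and genes most like Dut included Pot1b (0.927), Atad2, Hist2h2bb and Kif18a. Slc29a1 was most like the beta-1 adrenergic receptor gene Adrb1 (0.957), Chad, Phyh, Gm6484 and Map2k6. Rrm2b was most like Ttc32 (0.968), Elmod2, Tmem170, Adat1 and Ddx26b, and Tk2 most like Ezh1 (0.969), Scml4, Zfyve27, Ctsw and Cep83os. Samhd1 was most like Srbd1 (0.947), Vav2, Helz2, Prr15 and Trim16. For Dtymk the closest gene was Polr2h (0.886), followed by Mpc2, Lama4, Kirrel3 and Siva1. Rrm2 had the weakest closest gene, Fabp5 (0.824), and those after it included Ttc30a1, Osbpl6 and Cdc25a.

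Of the 10 genes, 3 overlap exons of a gene on the opposite strand in the GENCODE annotation: Tk1 with Afmid over 83 bases, Rrm2b with Gm49085 over 260 bases and Slc29a1 with Gm17080 over 275 bases. The library kit keeps strand, but the strand setting of the counting is not given in the sources used here, so reads from these stretches cannot be assigned to one gene or the other. Tyms shares sequence with the pseudogene Tyms-ps, and counts of reads that match both are uncertain.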

How the data were processed

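The deposited table holds raw read counts per gene for 13 libraries. Per the labels, the study's methods and the submitters' processing notes, the authors demultiplexed reads with bcl2fastq 2.20, aligned them to mouse build mm10 (GRCm38) with STAR and counted them with featureCounts (Subread 1.6.2), without pooling; the STAR version, the strand setting and the treatment of multi-mapping reads are not given in the sources used here. Counts were tested as deposited with edgeR 4.0.16 in R 4.3.3 (filterByExpr, TMM, robust quasi-likelihood test, Benjamini-Hochberg over all tested genes, threshold 0.05). The gland comparison used all 13 libraries (17135 genes) and the 6 comparisons between tumors the 11 tumors (16870 genes). All comparisons between tumors come from 1 fit and share samples. CPM values use TMM-scaled totals, log2 CPM a prior count of 2, and per-kilobase levels the union of exons in GENCODE vM21. Promoter windows are from RefSeq on GRCm38.p6. Total counts per library ran from 39921388 to 56887708. By a chi-square test of counts, none of the 11 pairs of libraries within a group were duplicates.

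The 10 genes and all gene lists were chosen with earlier results of these data known. Named outside the 10 were, by rule, the pathway genes of smallest p in each comparison (8 against glands, 4 otherwise), the 5 genes most like each of the 10 by Pearson's r over the 11 tumors, and Mki67, Pcna, Cdkn1a, Mdm2 and Ptprc. Some genes that the rule names are not reported here. Epcam, Cd163 and Slc28a1 were named after their values were seen. Alternatives were limma voom (limma 3.58.1), DESeq2 1.42.0, other scalings, no filter on low counts, a replicate block, the compared groups alone, and leaving out each library; the scripts were tested on simulated data. Permutation tests and drawings used Python 3.11.15 with numpy 2.4.6, pandas 2.3.3 and matplotlib 3.10.9.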

Additional observations from a re-analysis of the deposited data

Results flagged for a closer look

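In 5 of the 10 genes the stavudine difference was not the same in recurrent and primary tumors by the test of the interaction itself, at an unadjusted p under 0.05. On the log2 scale the difference in recurrent tumors minus that in primary tumors was -0.62 for Dut (unadjusted p = 0.0129), -0.73 for Rrm1 (0.0186), -0.72 for Tk1 (0.0226), -0.82 for Tyms (0.0260) and -0.42 for Dtymk (0.0292). All 5 fail the correction for multiple tests (edgeR quasi-likelihood test, adjusted p from 0.534 to 0.600), and they rest on 11 tumors, of which 2 are recurrent with stavudine. Beside these 5 of 10 genes, 4.01% of all genes had a negative interaction at an unadjusted p under 0.05, and so did 25 of the 30 proliferation genes (median of the 30 at -1.59, Mki67 at -1.85), whose part in the result was not tested. No group had the 4 samples needed to look for single samples far from the rest.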

How the results depend on the processing

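The number of the 10 genes called against glands was 1, and it was 5 with DESeq2, 2 with limma voom, 2 without milk, muscle and adipocyte genes in the table, and 0 with the replicate number as a block. Leaving out 1 library at a time it ran from 1 to 7, with 7 without gland 1, 4 without recurrent DMAG tumor 1 and 2 without recurrent DMAG STV tumor 2. Over all genes, 1785 were called against glands, 361 with primary untreated tumors as the only tumors, 3238 with DESeq2, 489 with library totals alone and 371 with the block, and 535 (without gland 2) to 4255 (without gland 1) with 1 library left out. Between tumors, none of the 10 genes was called under any alternative. Over all genes the count of 0 became 18 with DESeq2 for stavudine in primary tumors, 66 for recurrence without stavudine, 327 for recurrence under stavudine, 270 for stavudine in recurrent tumors, 49 for stavudine over all tumors and 185 for the interaction. With 1 library left out it ran from 0 to 1 for recurrence without stavudine, and without recurrent DMAG STV tumor 1 it reached 100 for recurrence under stavudine, 141 for stavudine in recurrent tumors, 28 for stavudine over all tumors and 77 for the interaction. It was 2 for recurrence under stavudine when only the compared groups were fitted. Without both recurrent DMAG tumor 1 and recurrent DMAG STV tumor 2, it was 8 for recurrence under stavudine and 5 for stavudine in recurrent tumors. Where a group was left with 1 tumor or gland, it was assumed to vary like the other groups. The cause of these changes was not tested.

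Replicate numbers recur across groups in the labels, but same-numbered samples did not deviate together: of 15 such pairs, 3 correlated above 0.1, with correlations from -0.295 to 0.223, so the samples share only a number. With the block, the log2 fold change of Rrm2 against glands was 0.70 (adjusted p = 0.0621), the only call on the 10 genes that was lost. Of the pathway genes called against glands, with 1 gland left out, an alternative chosen after seeing the data, Slc28a3 ran from -4.20 to 0.096 and Abcg2 from -3.67 to 0.63 on the log2 scale.

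Of 1180 alternative fold changes of the 10 genes, 82 changed sign, in all genes but Dut. None of these had an unadjusted p under 0.05 (the smallest was 0.0540), and the largest was 0.49 in size. Against glands, the log2 fold change of Tk2 was 0.045 with primary untreated tumors alone and 0.38 with library totals alone, and ran from -0.085 to 0.13 with 1 library left out, and that of Samhd1 from -0.69 to 0.12. For stavudine in primary tumors, Rrm2b was 0.00036 with limma voom, 0.027 with library totals alone, 0.0044 without milk, muscle and adipocyte genes, 0.0048 with no filter on low counts, 0.00028 with the block and 0.0066 with the compared groups alone. With 1 library left out, that comparison gave -0.20 to 0.14 for Rrm2b, -0.010 to 0.15 for Rrm1, -0.090 to 0.20 for Samhd1, -0.36 to 0.077 for Slc29a1, -0.035 to 0.18 for Tk1 and -0.061 to 0.10 for Tk2.

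For recurrence without stavudine, Rrm2 was -0.0077 with limma voom and -0.0039 with the block, and with 1 library left out it ran from -0.13 to 0.18, Dtymk from -0.010 to 0.12 and Tk2 from -0.38 to 0.10. For recurrence under stavudine, Rrm2 was 0.0031 with the block, and with 1 library left out it ran from -0.25 to 0.10, Samhd1 from -0.79 to 0.49, Tk1 from -0.50 to 0.00071 and Tk2 from -0.42 to 0.030. For stavudine in recurrent tumors, Samhd1 ran from -1.15 to 0.12 and Tk2 from -0.24 to 0.24. For stavudine over all tumors, Rrm2b ran from -0.026 to 0.13, Samhd1 from -0.54 to 0.0997, Tk2 from -0.10 to 0.14 and Tyms from -0.38 to 0.021. The interaction of Rrm2 was 0.0070 with the block. The interaction of Tk2 was -0.013 with DESeq2, -0.012 with its size factors in edgeR, -0.054 with library totals alone, -0.024 without milk, muscle and adipocyte genes and -0.017 with no filter on low counts. With 1 library left out the interaction ran from -0.29 to 0.074 for Rrm2, from -0.013 to 0.34 for Rrm2b, from -1.23 to 0.050 for Samhd1 and from -0.28 to 0.20 for Tk2.

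Without recurrent DMAG tumor 1 and recurrent DMAG STV tumor 2 together, an alternative chosen after seeing the data, recurrence without stavudine gave 0.10 for Tk2, and recurrence under stavudine gave 0.10 for Rrm2, 0.49 for Samhd1, 0.0014 for Tk1 and 0.031 for Tk2. Stavudine in recurrent tumors gave -0.11 for Rrm2b, 0.31 for Samhd1 and -0.034 for Tk2, stavudine over all tumors -0.054 for Rrm2b and 0.19 for Samhd1, and the interaction 0.086 for Rrm2, -0.12 for Rrm2b, 0.23 for Samhd1 and -0.071 for Tk2. Without the 2 tumors farthest from the median score, the correlation with proliferation was -0.405 for Tk2 and -0.387 for Slc29a1, and that with leukocytes -0.155 for Dut, -0.430 for Rrm1, -0.013 for Rrm2 and -0.156 for Samhd1. With values centred on group means it was -0.061 for Dtymk and -0.131 for Slc29a1 with proliferation, and 0.418 for Dtymk with leukocytes. The 10 genes had 325 counts or more in every library, and groups of 2 and 3 samples limit the comparisons.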

Other observations

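Pnp, the purine nucleoside phosphorylase, was the pathway gene outside the 10 with the smallest interaction p. It had 17.8, 15.8 and 13.9 CPM in recurrent DMAG tumors and 20.5 and 22.4 CPM in recurrent DMAG STV tumors, where stavudine went with a higher value (log2 fold change 0.44, unadjusted p = 0.0772), while in primary tumors it went with a lower one (-0.71, unadjusted p = 0.00610). Neither passed the adjusted threshold in edgeR's quasi-likelihood test (adjusted p = 0.703 and 0.9998).

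The ratio of Rrm2 to Rrm2b counts, the S-phase and the p53-inducible small subunit of the reductase, was 1.90, 1.05 and 1.68 in recurrent DMAG tumors and 1.37 and 0.918 in recurrent DMAG STV tumors. It was 0.861 to 1.55 in the 6 primary tumors, and 0.705 and 1.21 in the glands, so the groups overlapped. No test was run on this ratio.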
